A study of Sus scrofa with 18 samples.

Results

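Genes of the hypoxia-inducible factor (HIF) pathway were followed in pigs whose right ventricular free wall was sampled in failure after coronary artery ligation and at baseline. The gene set held 10 symbols: VEGFA, ADM, HIF1A, SLC2A1, BNIP3, BNIP3L, NDRG1, DDIT4, PFKFB3 and EGLN1. Every probe set that the probe table assigns to exactly 1 of these symbols was taken. Of the 10 symbols, 7 were named on the array, by 16 probe sets, out of 6790 genes named in all. VEGFA and HIF1A had 4 probe sets each, EGLN1 had 3, BNIP3L had 2, and ADM, SLC2A1 and DDIT4 had 1 each. No probe set is named BNIP3, NDRG1 or PFKFB3 in the table used here, and these 3 genes were not analysed.

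The failure group and the baseline group each held 9 arrays, 1 per pig, so that every animal was its own control. All pigs came from a cross of Hampshire, Yorkshire and Swedish Landrace, and the labels give no age, sex or genotype. For pigs 6, 8, 9, 11, 12 and 13, here label set 1, the failure sample is labelled with 120 min of ischemia. For pigs 5, 10 and 14, here label set 2, the labels describe acute ischemic failure, reached when right atrial pressure exceeded 20 mmHg, in animals of 30 to 40 kg. No array came from an animal that was operated on without ligation, so ischemia, failure and the time and surgery between both samples cannot be told apart.

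HIF is a transcription factor made of an alpha and a beta subunit. In normal oxygen, prolyl hydroxylases such as EGLN1 mark the alpha subunit for ubiquitination by the VHL complex and its destruction. When oxygen falls the alpha subunit escapes this mark, pairs with ARNT and switches on genes for vessel growth, glucose uptake, glycolysis and mitochondrial turnover. The control of HIF1A therefore acts mainly on the protein, whereas its targets are read at the level of their mRNA. In the ischemic heart this response is known as an adaptation to low oxygen supply.

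None of the 16 probe sets passed an adjusted p of 0.05 in the paired comparison of failure with baseline (limma with pig as a block, p-values adjusted by Benjamini-Hochberg across the 23935 probe sets tested). Over all tested probe sets 16 passed, which is 0.0668%. Adjusted p-values of the 16 HIF pathway probe sets ran from 0.695 to 0.997. At an unadjusted p under 0.05 there were 3 of 16, 1 each of VEGFA, DDIT4 and EGLN1, against 6.14% over all tested probe sets. An unmoderated paired test also gave 0 of 16 past the adjusted threshold, with 1 at an unadjusted p under 0.05.

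Levels below are log2 intensities and changes are failure minus baseline on the log2 scale, so that a change of 1 would be a doubling. Mean changes lay above 0 at 11 probe sets and below 0 at 5, between -0.23 and 0.29. Their median was 0.03, against 0.00034 over all tested probe sets. At all 16 probe sets the failure and baseline values overlapped, and 0% of the 23935 tested probe sets had groups without overlap. At the brightest probe set of each gene, the 95% intervals of the 7 genes together reached from -0.34 to 0.32, which is a fold of 0.790 to 1.25 in failure over baseline. Intervals at other probe sets of the same genes reached further, up to 0.55 for VEGFA and down to -0.42 for EGLN1. In tissue RNA, fewer cells of a type and less RNA per cell cannot be told apart.

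**Figure D1:**
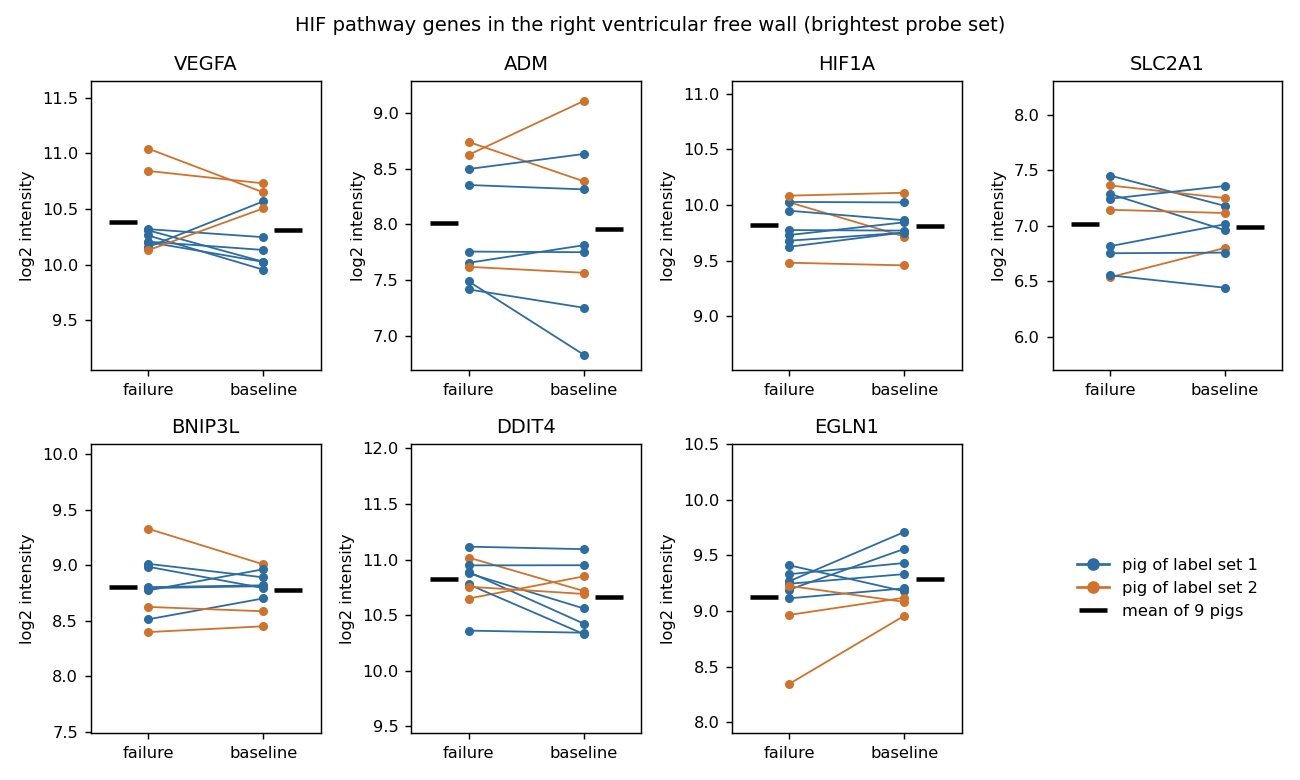
Log2 intensity (vertical axis) of 7 HIF pathway genes at the brightest probe set, in failure on the left and at baseline on the right. Each line joins both samples of 1 pig, blue for label set 1 and orange for label set 2, and black bars are the means of 9 pigs; every panel spans the same height in log2 units. Lines cross in every panel and the means of both groups differ by at most 0.16.

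Among the oxygen sensing genes, HIF1A, which encodes the regulated alpha subunit, had the narrowest interval of the 7. At its brightest probe set, levels in failure were 9.48 at the lowest, 9.78 at the median and 10.08 at the highest. Baseline levels were 9.46 at the lowest, 9.77 at the median and 10.11 at the highest. The change was 0.01 (SE 0.057, 95% interval -0.11 to 0.13, adjusted p = 0.996 in limma), with 5 pigs higher and 4 lower. Pig 14 was lowest and pig 10 highest in both groups. In 8 pigs the change lay between -0.13 and 0.08, and in pig 5 it was 0.31. Without pig 5 the mean change was -0.03, and no call depended on it.

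The other 3 HIF1A probe sets were dim, with mean levels under the 25th percentile of every array (3.91 to 4.07). Their changes were 0.07, 0.09 and 0.01, with 4 or 5 of 9 pigs higher. In pig 5 the second brightest HIF1A probe set had a change of 0.77, against -0.17 to 0.22 in the others. Values so close to the bottom of the array's range carry little information on size.

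EGLN1, the hydroxylase that senses oxygen and is itself induced by HIF, gave different values at its 3 probe sets. At the brightest, failure levels were 8.35 at the lowest, 9.23 at the median and 9.41 at the highest. Baseline levels were 8.96 at the lowest, 9.20 at the median and 9.71 at the highest. The change was -0.16 (SE 0.083, 95% interval -0.34 to 0.01, adjusted p = 0.830), with 2 pigs higher and 7 lower. Pig 5 was lowest in both groups and had the lowest change, -0.61.

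The dimmest EGLN1 probe set had the smallest p of the 16. It averaged 5.64 ± 0.25 in failure and 5.87 ± 0.30 at baseline (SD, n = 9 each). The change was -0.23 (SE 0.087, unadjusted p = 0.0195, adjusted p = 0.695 in limma) and was below 0 in 7 of 9 pigs. It did not pass the threshold. The values furthest below 0 were those of pig 12 (-0.69) and pig 13 (-0.65). Its change had r = -0.67 with that of the RNA quality measure described below, the GAPDH 3'/5' difference (exact permutation p = 0.0472, adjusted 0.189), with rho = -0.58 (exact permutation p = 0.108, adjusted 0.386) and r = -0.52 without pigs 5 and 13. With that measure as a covariate in limma the change was -0.14 (unadjusted p = 0.0921).

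The second brightest EGLN1 probe set averaged 9.14 ± 0.13 in failure and 9.08 ± 0.20 at baseline (SD, n = 9 each). Its change was 0.06 (SE 0.063, 95% interval -0.07 to 0.20, adjusted p = 0.940), with 6 pigs higher and 3 lower. In 6 of 9 pigs it moved in the opposite direction to the brightest EGLN1 probe set. No single direction can therefore be given for EGLN1 from this array. Where these probe sets lie along the transcript is not given in the sources used here.

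**Figure D2:**
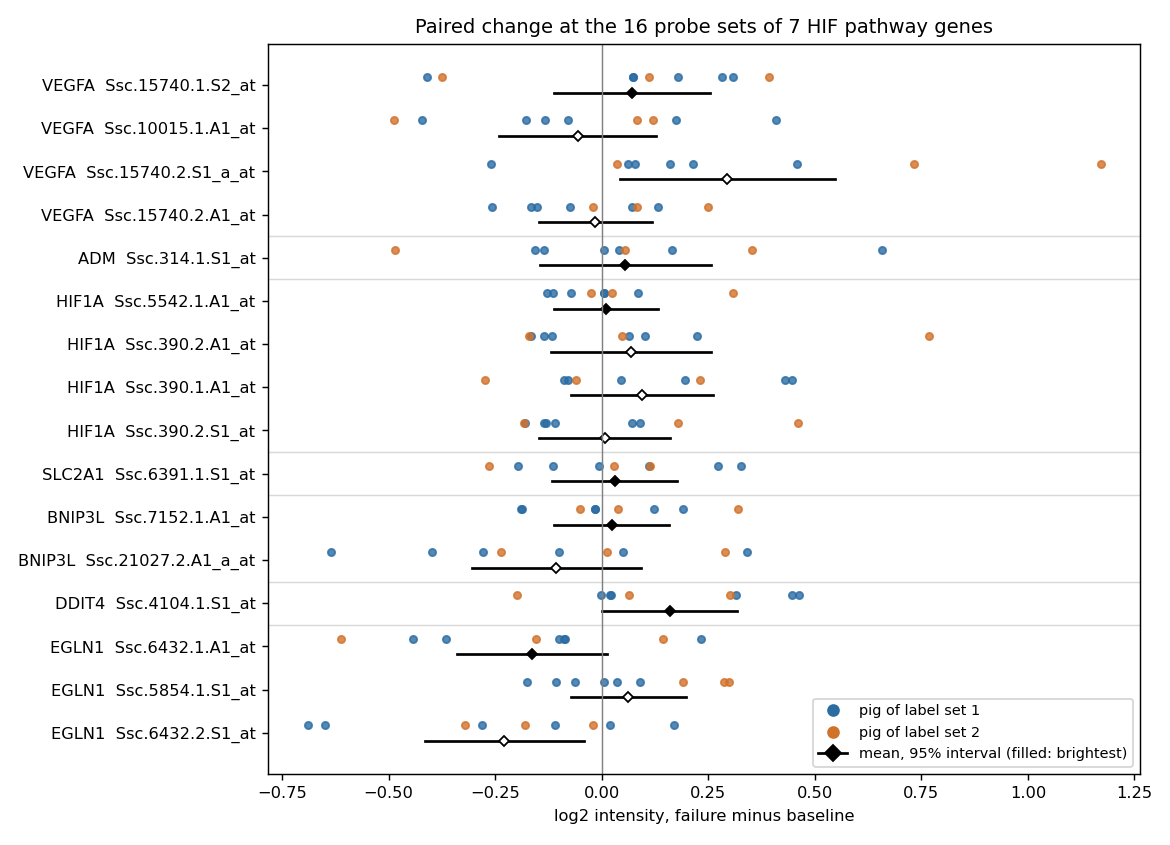
Change in log2 intensity, failure minus baseline (horizontal axis), at each of the 16 probe sets. Small points are the 9 pigs, blue for label set 1 and orange for label set 2; diamonds and bars are the limma mean and its 95% interval, filled at the brightest probe set of each gene. Most intervals span 0, and the 3 that do not belong to the VEGFA probe set at 0.29, DDIT4 at 0.16 and the EGLN1 probe set at -0.23.

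Of the secreted products, VEGFA encodes the growth factor that drives sprouting of vessels. At its brightest probe set, failure levels were 10.13 at the lowest, 10.26 at the median and 11.04 at the highest. Baseline levels were 9.96 at the lowest, 10.25 at the median and 10.73 at the highest. The change was 0.07 (SE 0.085, 95% interval -0.11 to 0.25, adjusted p = 0.947), a 1.05-fold difference, with 7 pigs higher and 2 lower. The 2 pigs below 0 were far from the others: -0.41 in pig 9 and -0.38 in pig 14, against 0.07 to 0.39 in the remaining 7. Leaving out single pigs gave mean changes between 0.03 (without pig 5) and 0.13 (without pig 9).

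The second bright VEGFA probe set had nearly the reverse pattern over the same animals. Failure levels were 8.48 at the lowest, 9.94 at the median and 10.42 at the highest. Baseline levels were 8.97 at the lowest, 9.87 at the median and 10.46 at the highest. The change was -0.06 (SE 0.086, adjusted p = 0.957), with 4 pigs higher and 5 lower. Its highest change, 0.41, was in pig 9, and its lowest, -0.49, in pig 5. The mean change lay between -0.12 (without pig 9) and -0.0032 (without pig 5) with single pigs left out.

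In 7 of 9 pigs these VEGFA probe sets changed in opposite directions. Across pigs their changes had r = -0.81 (exact permutation p = 0.00804) and rho = -0.85 (exact permutation p = 0.00607). Adjusted over the 16 pairs of probe sets of 1 gene, a family added after seeing the data, the p-values were 0.129 and 0.0972. When pigs 9 and 14 were left out r was -0.87. The 6 pigs of label set 1 gave -0.89, and the 3 of label set 2 are too few for a value. The mean of both probe sets, which was not planned, had a change of 0.01 ± 0.09 (SD, n = 9), with the pigs between -0.15 and 0.12 (two-sided exact sign-flip test, p = 0.844). The paired design of 9 pigs allows a smallest p of 0.0039 in that test. Opposite changes cancel in such a mean, so its small spread sets no bound on the change of VEGFA. Alone, the changes of the 2 probe sets had SDs of 0.28 and 0.29.

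The other VEGFA probe sets were dimmer. The third in brightness averaged 5.75 ± 0.46 in failure and 5.45 ± 0.30 at baseline (SD, n = 9 each), near the array median of 5.59 to 5.66. Its change was 0.29 (SE 0.118, unadjusted p = 0.0253, adjusted p = 0.724 in limma), the highest mean of the 16, and 8 of 9 pigs were above 0. The mean leaned on pig 5 (1.17) and pig 10 (0.73), whereas the other 7 pigs lay between -0.26 and 0.46. Without pig 5 the mean change was 0.18. The fourth probe set lay under the 25th percentile of the arrays and had a change of -0.01.

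ADM encodes adrenomedullin, a peptide that widens vessels and is secreted by stretched or hypoxic heart tissue. Failure levels were 7.42 at the lowest, 7.76 at the median and 8.74 at the highest. Baseline levels were 6.83 at the lowest, 7.81 at the median and 9.11 at the highest. The change was 0.06 (SE 0.094, 95% interval -0.15 to 0.26, adjusted p = 0.959), with 6 pigs higher and 3 lower. ADM varied more than any other of the 7 genes at their brightest probe sets, both between animals (SD of the pig means 0.608) and in the change (SD 0.324). The change ran from -0.48 in pig 10, whose baseline was the highest of all, to 0.66 in pig 12, whose baseline was the lowest.

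SLC2A1 encodes GLUT1, the glucose carrier that HIF induces in most cells. Failure levels were 6.54 at the lowest, 7.14 at the median and 7.45 at the highest. Baseline levels were 6.44 at the lowest, 7.01 at the median and 7.36 at the highest. The change was 0.03 (SE 0.069, 95% interval -0.12 to 0.18, adjusted p = 0.973), with 5 pigs higher and 4 lower. The extremes were pig 5 at -0.26 and pig 8 at 0.33.

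BNIP3L, also called NIX, is a receptor on the outer mitochondrial membrane that marks mitochondria for autophagy. At its brightest probe set, failure levels were 8.40 at the lowest, 8.79 at the median and 9.33 at the highest. Baseline levels were 8.45 at the lowest, 8.81 at the median and 9.01 at the highest. The change was 0.02 (SE 0.063, 95% interval -0.11 to 0.16, adjusted p = 0.978), with 4 pigs higher and 5 lower. Pig 10 was lowest and pig 5 highest in both groups.

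The dimmer BNIP3L probe set averaged 6.68 ± 0.45 in failure and 6.78 ± 0.40 at baseline (SD, n = 9 each). Its change was -0.11 (SE 0.092, 95% interval -0.30 to 0.09, adjusted p = 0.918). Pigs ranged from -0.64 in pig 13 to 0.34 in pig 9, and here pig 5 was lowest in both groups. With single pigs left out the mean change ran from -0.16 (without pig 9) to -0.04 (without pig 13). Over the pigs, the changes of both BNIP3L probe sets had r = -0.01 (exact permutation p = 0.981) and rho = -0.03 (exact permutation p = 0.948). Leaving out pigs 5 and 6 gave r = 0.03.

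DDIT4, or REDD1, encodes a protein that restrains mTOR complex signalling under hypoxia and other stress. Its probe set is listed under 2 gene identifiers that carry the same symbol. Failure levels were 10.36 at the lowest, 10.88 at the median and 11.12 at the highest. Baseline levels were 10.33 at the lowest, 10.69 at the median and 11.09 at the highest. The change was 0.16 (SE 0.074, 95% interval 0.000175 to 0.32), a 1.12-fold difference, with an unadjusted p of 0.0498 and an adjusted p of 0.812 in limma.

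DDIT4 was above 0 in 7 of 9 pigs. In pigs 5, 6, 8 and 12 the changes lay between 0.30 and 0.46. In 4 others they lay between -0.0010 and 0.06, and in pig 10 the change was -0.20. Leaving out single pigs gave means between 0.12 and 0.20. DDIT4 was the 1 gene of the 7 whose brightest probe set had an unadjusted p under 0.05, against 5.57% of the brightest probe sets of all 6790 named genes.

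RNA quality was read from the control probe sets on the same arrays. With chemistry that primes at the poly(A) tail, the log2 difference between 3' and 5' probe sets of GAPDH grows as RNA degrades. Its change in failure was 0.24 ± 0.56 (SD, n = 9; 6 of 9 pigs above 0, two-sided exact sign-flip test, p = 0.246). The change was 1.18 in pig 13, 0.94 in pig 5 and 0.55 in pig 12, and it was below 0 in pig 9 (-0.44), pig 14 (-0.33) and pig 11 (-0.09). Pig 5 stood apart in both samples, at 3.55 in failure and 2.61 at baseline, where the other pigs reached at most 2.17 in failure and 1.49 at baseline.

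The change of the brightest VEGFA probe set followed that of the GAPDH 3'/5' difference across the 9 pigs, with r = 0.86 (exact permutation p = 0.00478) and rho = 0.93 (exact permutation p = 0.00075). Adjusted over the 7 brightest probe sets, these p-values were 0.0334 and 0.00525. Leaving out pigs 5 and 13, the 2 farthest from the median, gave r = 0.92, and the pigs of label set 1 alone gave r = 0.84. The other 6 genes at their brightest probe sets had r between -0.33 and 0.48, with adjusted p-values from 0.677 to 0.856. For HIF1A, r was 0.08 with all pigs and -0.91 without pigs 5 and 13, and rho was -0.42 (exact permutation p = 0.270) with all pigs.

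All 16 probe sets were then set against the same measure, a family added after seeing the data. The second bright VEGFA probe set moved against it, with r = -0.82 (exact permutation p = 0.00729, adjusted 0.0389) and rho = -0.90 (exact permutation p = 0.00203, adjusted 0.0162). Leaving out pigs 5 and 13 gave r = -0.93. The dimmer BNIP3L probe set also moved against it, with r = -0.90 (exact permutation p = 0.000981, adjusted 0.0157) and rho = -0.88 (exact permutation p = 0.00308, adjusted 0.0164). Leaving out pigs 5 and 13 gave r = -0.95. In this family the brightest VEGFA probe set had an adjusted p of 0.0382, and the remaining 13 had adjusted p-values from 0.189 to 0.878.

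Such relations were present across the array. Of all 23935 tested probe sets, 4.57% had an r of at least 0.8 in size with the GAPDH difference, 383 above 0 and 711 below 0. Against the 3'/5' difference of a second control transcript, EF1A, 2.34% did so, and EF1A itself followed GAPDH with r = 0.86 (exact permutation p = 0.000444), rho = 0.82 (exact permutation p = 0.0108) and r = 0.68 without the 2 pigs farthest from the median. Against EF1A the brightest VEGFA probe set had r = 0.73 (exact permutation p = 0.0182, adjusted 0.145). The second bright VEGFA probe set had r = -0.60 (exact permutation p = 0.0826, adjusted 0.440), rho = -0.65 (exact permutation p = 0.0666, adjusted 0.266) and r = -0.64 without pigs 9 and 13. The dimmer BNIP3L probe set had r = -0.84 (exact permutation p = 0.00303, adjusted 0.0485), rho = -0.78 (exact permutation p = 0.0172, adjusted 0.138) and r = -0.55 without pigs 9 and 13. The points of all these relations share the same arrays.

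With the GAPDH difference as a covariate in limma, the VEGFA changes at both bright probe sets were -0.03 and 0.04, and that of the dimmer BNIP3L probe set was 0.02. ADM was then at -0.01, DDIT4 at 0.13 and the brightest EGLN1 probe set at -0.13. None of the 16 passed with it, and 0 had an unadjusted p under 0.05.

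**Figure D3:**
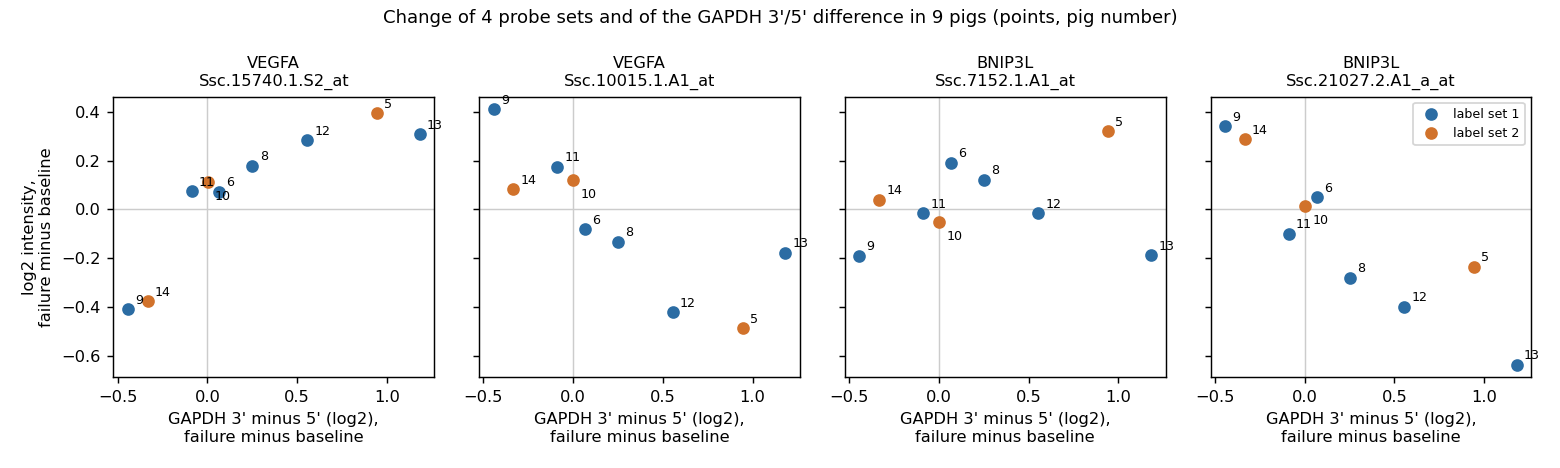
Change of both bright VEGFA probe sets and both BNIP3L probe sets (vertical axis, log2 intensity, failure minus baseline) against the change of the GAPDH 3'/5' difference (horizontal axis, log2). Points are the 9 pigs with their numbers, blue for label set 1 and orange for label set 2. The first VEGFA panel slopes upward (r = 0.86), while the second VEGFA panel (r = -0.82) and the dimmer BNIP3L probe set (r = -0.90) slope downward; the brightest BNIP3L probe set has r = 0.18.

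Changes of the 7 genes were compared with each other across the 9 pigs at their brightest probe sets, in 21 pairs. No pair passed Benjamini-Hochberg adjustment over the 21 (adjusted p-values of r from 0.162 to 0.973). The highest was that of SLC2A1 with EGLN1, with r = 0.82 (exact permutation p = 0.00772) and rho = 0.72 (exact permutation p = 0.0369, adjusted 0.387). It was 0.58 when pigs 5 and 8 were left out. HIF1A and SLC2A1 had r = -0.66 (exact permutation p = 0.0437, adjusted 0.350) and rho = -0.67 (exact permutation p = 0.0589, adjusted 0.412), and r = -0.16 without pigs 5 and 8. ADM and SLC2A1 had r = -0.61 (exact permutation p = 0.0788, adjusted 0.350) and rho = -0.72 (exact permutation p = 0.0369, adjusted 0.387), and r = -0.78 without pigs 10 and 12. VEGFA and ADM had r = 0.29 (exact permutation p = 0.455, adjusted 0.796), rho = 0.42 (exact permutation p = 0.270, adjusted 0.809) and r = 0.71 without pigs 9 and 14.

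The response of the HIF pathway genes was also compared between both label sets, since the labels describe the failure state differently. Samples of both sets were also numbered apart in the series. A difference in failure state therefore cannot be told apart from any other difference between the sets. In the interaction test of limma 0 of 16 probe sets passed, with adjusted p-values from 0.867 to 0.996, and 0% of all tested probe sets did. At an unadjusted p under 0.05 there were 2 of 16, against 5.67% over all. The second brightest EGLN1 probe set had changes of 0.26 ± 0.06 (SD, n = 3) in the pigs of label set 2, against -0.04 ± 0.10 (SD, n = 6) in those of label set 1, with an adjusted p of 0.867 for the difference in limma. The third VEGFA probe set had changes of 0.65 ± 0.57 (SD, n = 3) in the pigs of label set 2, against 0.12 ± 0.23 (SD, n = 6) in those of label set 1, with the same adjusted p in limma. In label set 2 the VEGFA values were 1.17, 0.73 and 0.04, so that the SD is close to the mean. DDIT4 was at 0.06 ± 0.25 (SD) in label set 2, against 0.21 ± 0.22 (SD) for label set 1 (adjusted p = 0.963 in limma).

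Other genes of the pathway were taken from 6 lists with 116 genes, of which 80 were measured. None passed the adjusted threshold in limma, and 2 of 80 (2.5%) had an unadjusted p under 0.05, against 5.57% of the brightest probe sets of all named genes. The changes lay above 0 for 40 genes and below 0 for the other 40, with a median of -0.0015. Over all named genes at their brightest probe set the median was -0.0066. Among list genes named below, r of the change with the GAPDH 3'/5' difference ran from -0.84 (PGK1) to 0.71 (TXNIP). It was -0.80 for CA9 and -0.73 for PINK1. The part of RNA quality in the changes of the list genes was not tested.

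Among partners of oxygen sensing, 7 of 15 listed genes were measured, 4 above and 3 below 0 and none past the threshold. EPAS1, the alpha subunit of HIF2, had a change of 0.05 (95% interval -0.08 to 0.17) and ARNT, the shared beta subunit, of 0.04 (-0.09 to 0.16). ARNT was at a dim level of 4.05 in failure and 4.02 at baseline, so that its change carries little information on size. EGLN2, a second hydroxylase, was at -0.01 (-0.15 to 0.13). CITED2, a HIF-induced protein that competes with HIF for its coactivator, was at -0.12 (-0.33 to 0.08).

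Among ligands and receptors of the VEGF and adrenomedullin systems, 11 of 15 were measured, 6 above and 5 below 0, and 0 passed. The VEGF receptor FLT1 had a change of -0.0042 (95% interval -0.21 to 0.20) and KDR of 0.01 (-0.17 to 0.19), KDR at a dim level of 3.64 in failure and 3.63 at baseline. CALCRL, the receptor that binds adrenomedullin together with a RAMP protein, had a change of 0.13 (-0.01 to 0.27) at a dim level of 3.41 in failure and 3.27 at baseline. VEGFB, a relative of VEGFA, was at -0.13 (-0.28 to 0.03).

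Glucose uptake and glycolysis were covered by 17 of 25 listed genes, with 5 above and 12 below 0 and none past the threshold. The median change was -0.02 and the range -0.12 to 0.10. PGK1 had a change of -0.02 (95% interval -0.18 to 0.14) and LDHA of -0.02 (-0.18 to 0.14). SLC2A4, the insulin-responsive glucose carrier, was at 0.06 (-0.06 to 0.18), and PFKFB4, which makes an activator of glycolysis, at 0.10 (-0.05 to 0.25). GAPDH, which is itself a glycolytic enzyme and the source of the quality measure, was at -0.02 (-0.12 to 0.09) at its brightest probe set.

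The list of other HIF targets had 24 of 34 genes measured, 13 above and 11 below 0. ANGPTL4, a secreted inhibitor of lipoprotein lipase, had the smallest p of all 80. Its failure levels were 6.53 at the lowest, 7.16 at the median and 8.10 at the highest, and its baseline levels were 6.15, 6.90 and 7.85. The change was 0.35 (SE 0.091, 95% interval 0.16 to 0.55, adjusted p = 0.380 in limma), a 1.28-fold difference, with 8 of 9 pigs above 0. It did not pass the threshold.

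The largest ANGPTL4 change was 1.01 in pig 12, and the mean was 0.28 with the GAPDH difference as a covariate. A second ANGPTL4 probe set had a change of 0.06. Of the other targets in this list, EDN1, which encodes the vasoconstrictor endothelin-1, had a change of 0.20 (95% interval -0.06 to 0.46). HMOX1, heme oxygenase 1, was at 0.20 (-0.04 to 0.45), and CA9, a carbonic anhydrase, at -0.06 (-0.22 to 0.11).

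Around BNIP3L, 11 of 14 genes of mitophagy were measured, 6 above and 5 below 0, and 0 passed. GABARAPL1, a protein of the autophagosome membrane, was at 9.85 ± 0.25 in failure and 9.73 ± 0.18 at baseline (SD, n = 9 each). Its change was 0.13 (SE 0.057, unadjusted p = 0.0407, adjusted p = 0.786 in limma), above 0 in 8 of 9 pigs, and the threshold was not passed. PINK1, the kinase that flags damaged mitochondria, was at -0.10 (95% interval -0.23 to 0.03).

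Around DDIT4, 10 of 13 genes of the mTOR brake were measured, 6 above and 4 below 0, and 0 passed. The changes ran from -0.02 to 0.10. TXNIP, a stress-responsive gene whose product binds DDIT4, was at -0.02 (95% interval -0.15 to 0.11), and DDIT4L, a relative of DDIT4, at 0.07 (-0.09 to 0.24).

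**Figure D4:**
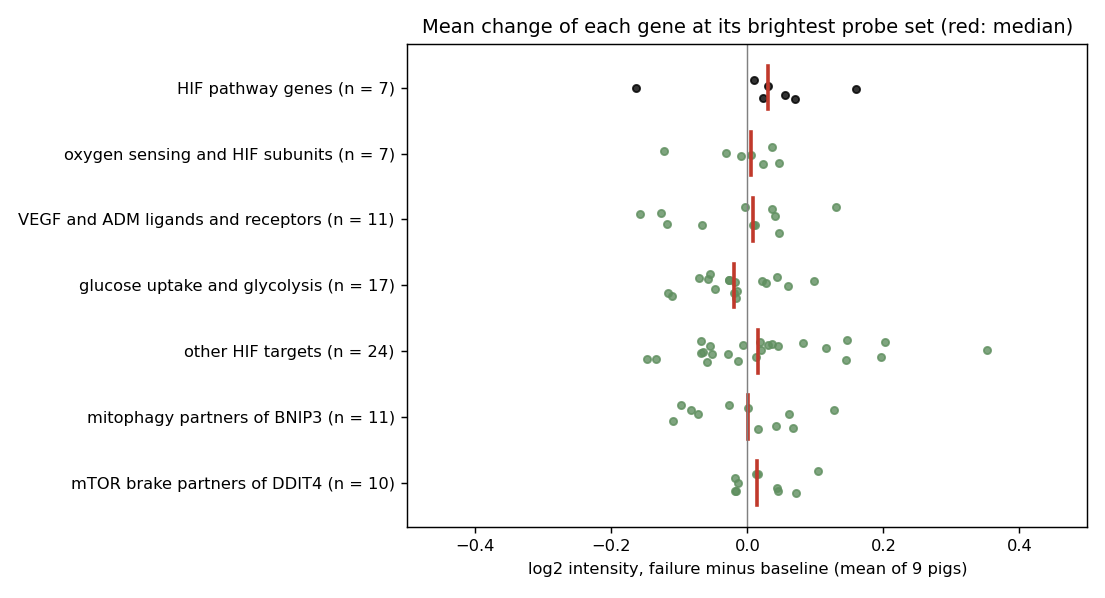
Mean change in log2 intensity over 9 pigs, failure minus baseline (horizontal axis), of each gene at its brightest probe set, for the 7 HIF pathway genes and 6 lists of related genes. Each point is a gene and red bars mark the median of each row; the vertical scatter within a row has no meaning. All row medians lie between -0.02 and 0.03, and the point farthest to the right is ANGPTL4 at 0.35.

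For the 3 genes with the most variable change, the genes with the most similar change over the 9 pigs were searched among 4942 named genes of at least median brightness. For ADM they were GEM (r = 0.90), KHNYN (r = 0.90) and ANGPTL4 (r = 0.88). For VEGFA at its brightest probe set they were MYH9 (r = 0.97), AKAP2 (r = 0.94) and STAT6 (r = 0.94). For EGLN1 at its brightest probe set they were LMAN2 (r = 0.96), ABTB2 (r = 0.92) and GPI (r = 0.92). These are the highest of 4942 values from 9 animals each and are given as a description.

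The labelled tissue was checked against markers. Of 10 cardiomyocyte markers 9 were measured and 9 lay above the array median. Their mean level per array was 13.79 to 14.32 in failure and 14.01 to 14.26 at baseline. The change was above 0 for 1 of them and below 0 for 8, with a mean of -0.05 ± 0.09 (SD, n = 9). Fibroblast markers, 6 of 8 measured, had 5 above and 1 below 0 (mean 0.08 ± 0.21, SD). Smooth muscle and pericyte markers, 7 of 8 measured, had 4 above and 3 below 0 (0.07 ± 0.22). Monocyte and macrophage markers, 4 of 7 measured, had 3 above and 1 below 0 (0.05 ± 0.20). No marker of these lists passed the adjusted threshold in limma. Endothelial markers, 10 of 10 measured and 7 above the array median, had a mean change of 0.0027 ± 0.18 (SD, n = 9). Neutrophil markers (3 of 7 measured) and lymphocyte markers (7 of 8 measured) all lay below the array median. The mean lymphocyte marker level was 4.42 to 4.75 in failure and 4.51 to 4.87 at baseline, a change of -0.17 ± 0.10 (SD, n = 9), with 1 of 9 pigs above 0. Of its 7 markers 0 passed the adjusted threshold in limma. At an unadjusted p under 0.05 there were 3, against 5.57% of the brightest probe sets of all named genes. These were CD8A at -0.49, KLRK1 at -0.36 and CD3D at -0.21. The remaining lymphocyte markers ran from -0.10 for CD3E to 0.02 for CCR7, and 2 of the 7 lay above 0. Red blood cell markers, a list with members known from earlier results of these data to be lower, were below 0 in 5 of 5. At the adjusted threshold in limma 3 of the 5 passed, against 0.0668% of all tested probe sets. The mean level of the red blood cell markers was 5.64 to 6.91 in failure and 6.60 to 7.88 at baseline. Its change was -0.80 ± 0.36 (SD, n = 9). The part of blood, lymphocyte or other cell content in the values of the HIF pathway genes was not tested.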

How the data were processed

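Porcine Affymetrix 3' IVT arrays (18, from 9 pigs) were analysed. Per the labels' protocols, RNA was isolated with Trizol and RNeasy columns, and 250 ng per sample was made into biotinylated cRNA. The values deposited by the authors are log2 intensities per probe set, from 2.08 to 15.2, with array medians of 5.59 to 5.66. At 1473 of 24123 probe sets the values carry at most 2 decimals. Among these are the dimmest EGLN1 probe set, the brightest of ANGPTL4, and those of GABARAPL1, CD8A and KLRK1. The red blood cell markers that passed (ALAS2, AHSP and HBM) are also among them. The reason for this format is not stated, and its part in their changes was not tested. The submitters' processing notes name Partek; background correction and normalization are not stated there. A shift shared by most transcripts would be hidden if arrays had been scaled.

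Of 24123 probe sets, 188 controls were left out and 23935 tested. The probe table gives 1 distinct symbol for 10110 of these, several for 157 and none for 13668. Its symbols were checked against a RefSeq gene table, and 0 changed. DDIT4 is listed under 2 identifiers with 1 symbol and was kept. A gene with several probe sets is described at the one with the highest mean over all arrays (the brightest), with the others beside it in order of that mean. Genomic positions and sequences were not used here.

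Failure was compared with baseline in limma 3.58.1 under R 4.3.3 (lmFit, then eBayes, a fixed block for each pig, two-sided, Benjamini-Hochberg over all tested probe sets, threshold 0.05), with label set as an interaction. The pairing comes from the pig numbers in the labels. With group means removed, both samples of a pig had an r between 0.45 and 0.75, and 9 of 9 matched best with their own. Correlations over pigs used exact permutation of all orders. The fits were run on simulated data with planted changes as a check of the code, and no statement on power is drawn from this. Precision is limited by the number of pigs, which were separate animals.

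The genes, lists and tests were chosen with earlier results of these data known. From each pathway list, up to 4 genes with the smallest unadjusted p under 0.05 were named by rule (ANGPTL4 and GABARAPL1). Other list genes were named for their roles, after their values were seen. For likeness, the 3 genes of the set with the most variable change were each given the 3 named genes with the highest r. Alternatives were a fit without the block, a random effect of pig, other scalings, a filter on dim probe sets, 1 value per gene, other variance models, covariates for RNA quality, pigs left out and each label set alone. The EF1A covariate, the fit without pigs 5 and 13, and the correlations of all 16 probe sets were added after seeing the data. The mean of both bright VEGFA probe sets was also not planned.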

Additional observations from a re-analysis of the deposited data

Results flagged for a closer look

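One animal, pig 5, lay far outside the range of the remaining 8 in 5 of the 60 sets of values examined. By chance about 1 set in 20 would hold such a value in any of the 9 pigs, which is 3 of 60. That figure is not the number to be met by chance in 1 given pig, and the 60 sets share arrays. The second bright VEGFA probe set was at 8.48 in failure in pig 5, against 9.70 to 10.42 in the others. The brightest EGLN1 probe set was at 8.35 in failure, against 8.96 to 9.41. The change of the brightest HIF1A probe set was 0.31, against -0.13 to 0.08, and that of the second HIF1A probe set, which is dim, was 0.77, against -0.17 to 0.22. The GAPDH 3'/5' difference at baseline was 2.61 in pig 5, against 0.61 to 1.49. The part of RNA quality in the 4 gene values of pig 5 was not tested.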

How the results depend on the processing

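None of the 16 HIF pathway probe sets passed the threshold under any alternative run, and the same held for the interaction with label set wherever it was fitted. Among 361 values of these probe sets under alternatives, 0 passed (lowest adjusted p 0.640), and 40 had the opposite sign, none larger than 0.104 in size. The number of pigs limits the precision, and 4 of the 16 probe sets were too dim to carry a size. Without the replicate block the count over all probe sets was 0 in place of 16, and the unmoderated paired test also gave 0, with 440 and 1431 at an unadjusted p under 0.05. The count was 9 with the filter on dim probe sets, 7 with the brightest probe set of each gene, 5 with gene means, 9 with the GAPDH covariate, 3 in label set 1 alone, 0 in label set 2 alone (1211 unadjusted) and 2 without pigs 5 and 13. It ran from 2 to 26 with single pigs left out.

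Signs turned as follows, and the cause was not tested. Probe sets are given in order of brightness. With quantile scaling, the dimmest HIF1A probe set was at -0.0023. As the mean of its probe sets, BNIP3L was at -0.042. With the GAPDH covariate, the bright VEGFA probe sets were at -0.034 and 0.043, ADM at -0.011, the second and dimmest HIF1A at -0.011 and -0.026 and the dimmer BNIP3L at 0.015. With the EF1A covariate, the second VEGFA was at 0.00064 and the dimmest at 0.0045. In label set 1 alone, the brightest, second and dimmest HIF1A were at -0.037, -0.0047 and -0.066, the brightest BNIP3L at -0.016 and the second EGLN1 at -0.036. In label set 2 alone, the dimmest VEGFA was at 0.104, ADM at -0.026, the third HIF1A at -0.035, SLC2A1 at -0.040 and the dimmer BNIP3L at 0.022. Without pigs 5 and 13, the bright VEGFA probe sets were at -0.0096 and 0.022, ADM at -0.0029 and the brightest, second and dimmest HIF1A at -0.022, -0.054 and -0.041.

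With single pigs left out, the values that crossed 0 ran from -0.020 to 0.123 for ADM, -0.014 to 0.050 for the brightest BNIP3L, -0.0067 to 0.067 for SLC2A1 and -0.048 to 0.015 for the dimmest VEGFA. For HIF1A they ran from -0.028 to 0.027 at the brightest, -0.019 to 0.098 at the second and -0.050 to 0.030 at the dimmest probe set. The correlation of the brightest VEGFA change with the GAPDH difference lay between 0.83 and 0.90, and that of the second between -0.94 and -0.76. The dimmer BNIP3L probe set had -0.95 to -0.84, and both VEGFA probe sets with each other -0.89 to -0.69. The GAPDH difference itself lay between 0.119 and 0.322.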
